A study of Homo sapiens with 4 samples.

Results

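The 10 genes described here were the 6 peroxiredoxins (PRDX1 to PRDX6), thioredoxin (TXN), its cytosolic reductase (TXNRD1), the lipid peroxidase GPX4 and the superoxide dismutase SOD1. They were chosen by gene name, and all 10 were found among the 16174 genes of the deposited table. The samples were H9, a long-used line of human embryonic stem cells in the primed state, and poly(A) RNA was sequenced as amplified long-read cDNA on a nanopore instrument. The cells carried a doxycycline-inducible dCas9-BFP-KRAB repressor (CRISPR interference, in which a cleavage-dead Cas9 brings a silencing domain to a promoter), delivered by transposon and selected with puromycin. One arm carried 4 pooled guides against the long non-coding RNA gene SNHG26, here called the knockdown arm, and the control arm carried guides with no target. Both arms received doxycycline, and RNA was taken after 2 or 3 days, with 1 library per arm and day. Each arm therefore has 2 libraries that differ in day, and every mean ± SD over an arm has n = 2 and includes any effect of the day. The labels do not say whether the libraries came from separate cultures, so p-values measure only the spread between these libraries.

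Peroxiredoxins are abundant thiol enzymes that reduce hydrogen peroxide with a reactive cysteine. Most of them are returned to the reduced state by thioredoxin, which is in turn reduced by thioredoxin reductase at the expense of NADPH. GPX4 uses glutathione to reduce lipid peroxides in membranes and is the main brake on ferroptosis, and SOD1 turns superoxide into hydrogen peroxide in the cytosol. TXNRD1 and GPX4 are selenoproteins, in which a UGA codon is read as selenocysteine instead of a stop. Several of these genes, TXNRD1 among them, are known targets of the transcription factor NRF2.

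The coding sequences hold the reactive cysteine or selenocysteine codons of several of these genes. In PRDX1 to PRDX4 the cysteine codon at the reactive site lies in a shared stretch. It is shown here from GENCODE release 29 transcripts on GRCh38 with that codon in capitals, because the other 2 peroxiredoxins lack its letters TGNCCNACN in frame.
PRDX1, chr1:45515743-45515772, minus strand: ttcacctttgtgTGCcccacggagatcatt
PRDX2, chr19:12801005-12801034, minus strand: ttcacttttgtgTGCcccaccgagatcatc
PRDX3, chr10:119173845-119174452, minus strand, across an exon junction: ttcacctttgtgTGTcctacagaaattgtt
PRDX4, chrX:23671645-23675017, plus strand, across an exon junction: ttcacatttgtgTGTccaactgaaattatc

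The letters TGNCCNACN, searched in frame on the coding strand only and chosen because these genes were known to hold them, were found in the principal coding sequences of 927 of 19539 genes (4.74%), these 4 peroxiredoxins among them. Over the 30 bases shown, PRDX1 and PRDX2 share 27 and are the most alike pair, and PRDX2 and PRDX3 share 22 and are the least alike. PRDX5, PRDX6 and the other members do not hold these letters in frame. Thioredoxin carries its redox-active pair of cysteines with a glycine and a proline codon between them, all in capitals below, and the reading frames of TXNRD1 and GPX4 run through an in-frame TGA, also in capitals, which the annotation marks as selenocysteine. In TXNRD1 that codon is number 498 and is followed by a single codon before the stop, whereas in GPX4 it is number 73, well inside the protein.
TXN, chr9:110251373-110251402, minus strand: gccacgtggTGTGGGCCTTGCaaaatgatc
TXNRD1, chr12:104348401-104348421, plus strand: caggctggctgcTGAggttaa
GPX4, chr19:1105391-1105420, plus strand: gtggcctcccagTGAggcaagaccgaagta

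The promoter table from RefSeq (GRCh38.p14) held windows for 7 of the 10 members, and PRDX1, PRDX6 and SOD1 had none. The core of the antioxidant response element to which NRF2 binds, TGACNNNGC on either strand, was searched in the 250 bases before each start. It occurred in 10.9% of 35116 windows and in 2 of the 11 windows of the members. These were both windows of TXNRD1, and no window of the other 6 members held it. A match is a description of these letters and not a shown binding site. The first lies 99 bases before the upstream start, outside every GENCODE transcript of the gene. The second, read on the opposite strand, lies 102 bases before a downstream start, and 5 of the 8 GENCODE transcripts that span it have it in an exon, TXNRD1-205 included. Both are shown with the motif in capitals, since TXNRD1 was the only member with one among the 7 that could be searched.
TXNRD1 upstream start, chr12:104215670-104215698, plus strand: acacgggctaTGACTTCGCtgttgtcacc
TXNRD1 downstream start, chr12:104286920-104286948, plus strand: gtggatttctGCTTTGTCAttctgactct

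The libraries were shallow. Placing every read on the full gene span, the 4 libraries held at most 947338 to 1220265 reads. SNHG26 itself was listed at 0 and 0.933 TPM on day 2 and day 3 with its own guides and at 2.98 and 4.03 TPM with the control guides, which is the direction of the labels. Of 14 markers of primed pluripotent cells, 11 had a mean of at least 1 TPM, led by POU5F1, and their summed level ran from 1974 to 2203 TPM. Of 7 mesendoderm markers 3 were in the table, and they summed to 0 TPM in 3 libraries and 1.98 TPM in the other one. Neuroectoderm markers (2 of 5 in the table, led by NES) summed to 17.1 to 24.5 TPM, fibroblast markers (2 of 5) to 7.95 to 11.9 TPM and amnion and trophectoderm markers (4 of 8) to 2.38 to 6.00 TPM, and their part in the results was not tested. RNA of the mitochondrial genome also differed between the libraries. In the knockdown arm it took 221499 TPM on day 2 and 176664 TPM on day 3, in the control arm 245906 and 247908 TPM, and because TPM values share a fixed sum, this share touches every nuclear gene below.

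Values are in TPM, in which reads per length are brought to the same total in each library. The deposited values divide by the genomic span of the transcript, introns included, so a level below is per base of gene span. By that measure PRDX1 (chr1:45510914-45542732), the main cytosolic peroxiredoxin, stood highest, at 949.4 TPM (day 2) and 1084 TPM (day 3) with the SNHG26 guides and at 1015 and 892.5 TPM with the control guides. Its mean over the 4 libraries was 985.3 ± 82.8 (SD, n = 4) TPM, and 1.57% of the 8274 genes averaging 1 TPM or more lay above it. The cytosolic PRDX2 (chr19:12796820-12801800) was listed at 593.1 and 782.0 TPM with the SNHG26 guides and 547.5 and 635.4 TPM with the control guides. Its day 3 library was the higher one in both arms, and the 2 lowest values were the day 2 libraries. PRDX5 (chr11:64318121-64321811), an atypical peroxiredoxin of mitochondria, peroxisomes and cytosol, followed at 533.4 and 610.7 TPM against 583.7 and 513.1 TPM. Its arms crossed, with the control library higher on day 2 and the knockdown library higher on day 3.

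The mitochondrial PRDX3 (chr10:119167720-119178812) stood at 308.2 and 291.9 TPM with the SNHG26 guides and at 303.4 and 244.0 TPM with the control guides. PRDX3 is the member whose depth is best known, since its value came out as whole reads over the gene span, within 0.001 read, in 3 libraries: 469 in the day 2 knockdown, 419 in the day 2 control and 403 in the day 3 control library. PRDX6 (chr1:173477330-173488815), which has a single reactive cysteine and also acts on phospholipids, stood at 237.4 and 307.3 TPM against 240.4 and 209.0 TPM. Its high value was the day 3 knockdown library, and the other 3 lay closer together. PRDX4 (chrX:23664262-23686397), the secretory-pathway member, was the lowest peroxiredoxin per gene span, at 143.8 and 174.8 TPM against 135.5 and 147.1 TPM.

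Thioredoxin (TXN, chr9:110243810-110256507) was listed at 244.5 and 162.4 TPM with the SNHG26 guides, day 2 first, and at 165.1 and 144.7 TPM with the control guides. The day 2 knockdown library stood apart from the other 3. The ratio of highest to lowest library, 1.69, was the largest of the 10 members but close to that of TXNRD1, 1.65. SOD1 (chr21:31659666-31668931) was listed at 183.9 and 176.0 TPM against 172.1 and 141.7 TPM, with both knockdown libraries above both control libraries. GPX4 (chr19:1103982-1106791) was listed at 131.3 and 153.8 TPM against 135.7 and 154.8 TPM. Its ratio of highest to lowest library, 1.18, was the smallest of the 10 members but close to that of PRDX5, 1.19. It rested on only an estimated 48.2 to 67.2 reads in a library. TXNRD1 (chr12:104215779-104350307) was listed at 3.68 and 2.68 TPM against 2.82 and 2.22 TPM, far below the rest, and 68.4% of the 8274 genes lay above it.

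**Figure D1:**
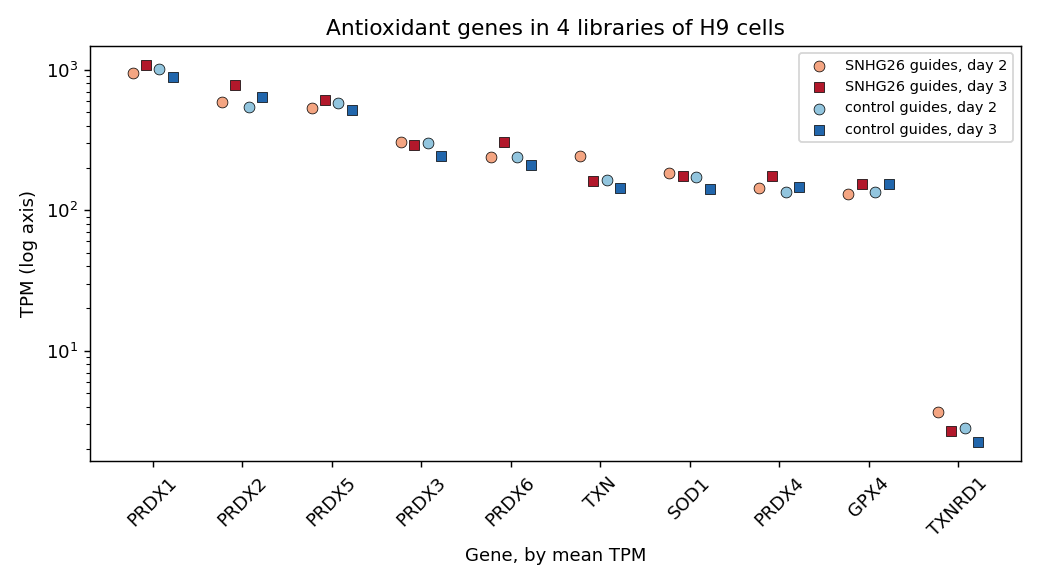
TPM of each gene (log axis) in the 4 libraries, 1 point per library, with genes ordered by their mean. PRDX1 was highest at 892.5 to 1084 TPM, 8 genes lay between 131.3 and 782.0 TPM, and TXNRD1 lay at 2.22 to 3.68 TPM.

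The order of the mean levels was PRDX1, PRDX2, PRDX5, PRDX3, PRDX6, TXN, SOD1, PRDX4, GPX4 and TXNRD1. Of the 9 neighbouring pairs, only 3 had ranges over the 4 libraries that did not overlap: PRDX1 above PRDX2 (1.54 times), PRDX5 above PRDX3 (1.95 times) and GPX4 above TXNRD1 (50.5 times). TXN and SOD1, and PRDX4 and GPX4, exchanged places in 2 of the 4 libraries, so their order was within the spread.

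Much of this order depends on the length used. TXNRD1 spans 134529 bases and its principal transcript, TXNRD1-205, covers 63596 bases of genome but 3930 spliced bases, while PRDX4-202 covers 18954 bases for 1005 spliced ones. When reads were estimated on the span of the principal GENCODE transcript and divided by its spliced length, PRDX1 stayed at rank 1 (mean 1227 estimated reads per kb) and PRDX2 at rank 2 (464.5). PRDX4 moved from rank 8 to rank 3 (402.0) and TXN from rank 6 to rank 4 (371.0), ahead of PRDX5 (329.2) and PRDX3 (281.7). GPX4 (63.3) and TXNRD1 (6.46) stayed at ranks 9 and 10. On this scale the distance from GPX4 to TXNRD1 was smaller than per gene span, but TXNRD1 was still the lowest in all 4 libraries, with an estimated 21.1 to 32.1 reads in a library. GPX4 rested on an estimated 48.2 to 67.2 reads, SOD1 on 196.5 to 250.9 and PRDX1 on 1377 to 1810.

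**Figure D2:**
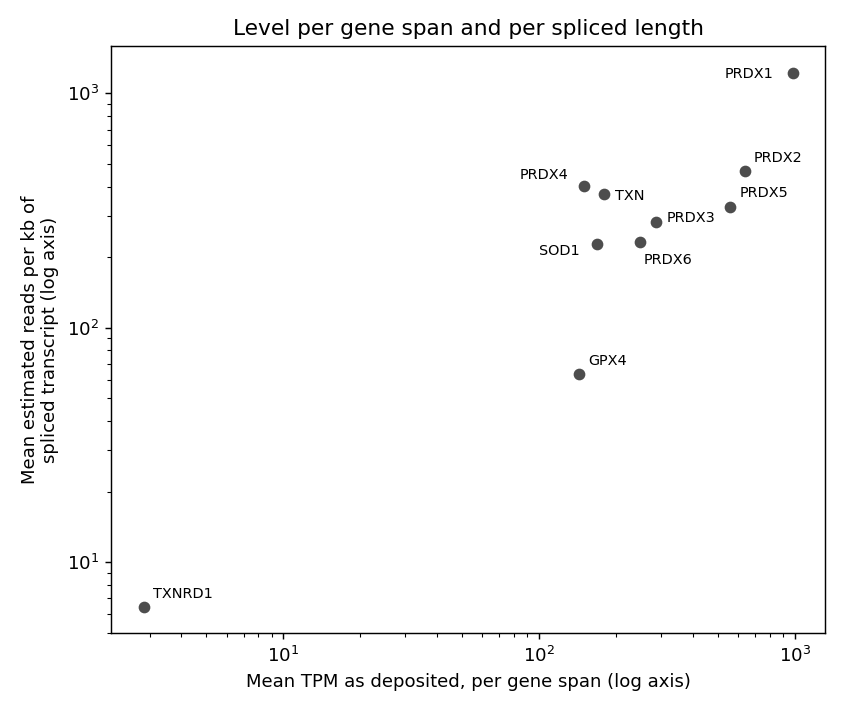
Mean level of each gene over the 4 libraries as deposited TPM per gene span (x, log axis) against estimated reads per kb of spliced principal transcript (y, log axis). PRDX1 leads and TXNRD1 is last on both scales, and PRDX4, at rank 8 by TPM, is at rank 3 by spliced length.

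The comparison of the guide arms asks whether repressing SNHG26 moves these genes. None of the 10 passed the limma threshold, an adjusted p of 0.05 over the 8274 genes tested, and their adjusted p-values ran from 0.935 to 0.998. The background was 0% of genes called, and 4.07% had an unadjusted p under 0.05 against 0 of the 10 members. All changes are on log2(TPM + 1), knockdown minus control, which understates the change of a low gene such as TXNRD1. On average 9 of the 10 members were higher in the knockdown arm, where 53.3% of all genes tested were, and GPX4 was the exception. On both days 6 members were higher (24.8% of all genes tested) and GPX4 was lower (21.8%).

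Among the peroxiredoxins, PRDX6 had the largest difference. It averaged 272.3 ± 49.4 TPM in the 2 knockdown libraries and 224.7 ± 22.2 TPM in the 2 controls, a log2 difference of 0.27 (SE 0.21, limma adjusted p 0.935). The difference was -0.02 on day 2 and 0.55 on day 3, so it rested on the day 3 pair, and without the day 3 knockdown library the mean difference was 0.0825. PRDX2 differed by 0.21 (limma 95% interval -0.34 to 0.75), PRDX4 by 0.17 (-0.38 to 0.72) and PRDX3 by 0.14 (-0.37 to 0.65), each above the control library on either day. Without the day 3 knockdown library PRDX2 stood at 0.0080 and PRDX4 at 0.0266, and without the day 3 control library PRDX3 stood at -0.0164. PRDX1 differed by 0.09 (-0.30 to 0.48) and PRDX5 by 0.06 (-0.37 to 0.49), with opposite signs on the 2 days. These intervals leave room for a change in either direction in each peroxiredoxin.

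TXN had the largest mean difference of the 10, with 203.5 ± 58.1 TPM under the SNHG26 guides and 154.9 ± 14.4 TPM under the control guides. The log2 difference was 0.36 (SE 0.27, 95% interval -0.38 to 1.11, limma adjusted p 0.935), with 0.56 on day 2 and 0.17 on day 3. Without the day 2 knockdown library it was 0.07. TXNRD1, the enzyme that reduces TXN, differed by 0.24 (-0.83 to 1.32), the widest interval of the group, on the fewest reads. SOD1 was the single member whose arms did not overlap, with 179.9 ± 5.54 against 157 ± 21.5 TPM. Its log2 difference was 0.20 (SE 0.19, limma adjusted p 0.941), and its p by exact permutation (two-sided) was 0.333, which is as small as 2 libraries against 2 can give. Without the day 3 control library the SOD1 difference was 0.0631. Such a separation with the knockdown arm higher was found in 16.1% of all genes tested, so 1 of 10 members is near the background. GPX4 differed by -0.03 (-0.58 to 0.52) and was within 0.05 of the control on both days.

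**Figure D3:**
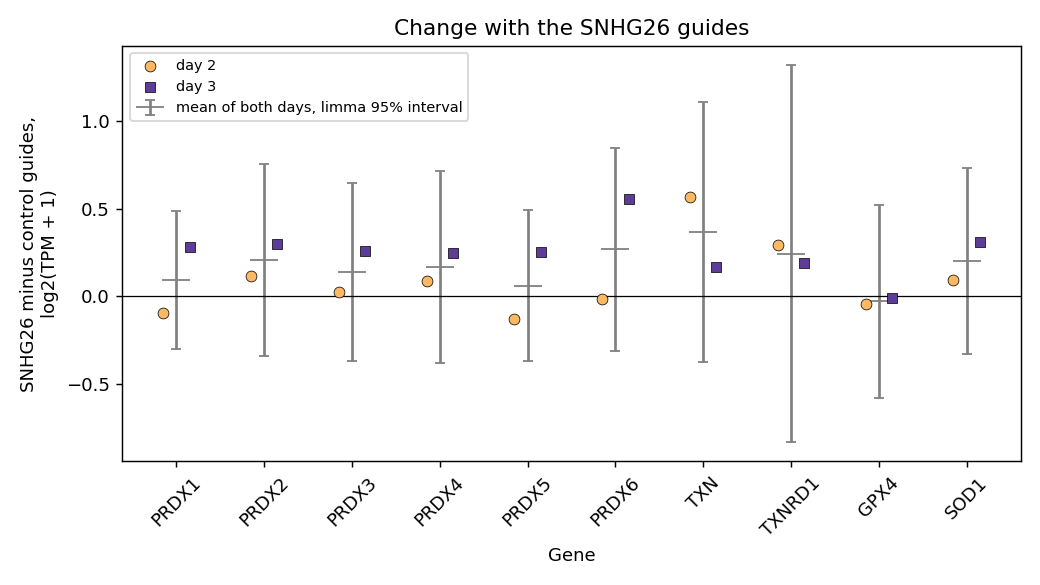
Difference between SNHG26 and control guides on log2(TPM + 1) for each gene, on day 2 (circles), on day 3 (squares) and as the limma mean with its 95% interval (grey, n = 2 libraries per arm). All 10 intervals include 0, and day 3 lies above 0 for 9 genes, with PRDX6 highest at 0.55.

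The 2 days differed in pattern. On day 2, 6 of the 10 members were higher in the knockdown library (background 46.1% of genes), with a median of 0.05 against 0 for all genes tested. On day 3, 9 of the 10 were higher (background 51.6%), with a median of 0.25 against 0.03. Most genes at these levels were also higher there: the 764 genes averaging 100 TPM or more, a class chosen after the values were seen, had medians of 0.18 for day 3 and 0.03 for day 2. The day 3 pair is also the one in which mitochondrial RNA differed most between the arms. Mitochondrially encoded mRNAs summed to less in the knockdown library on both days. The sums were 73556.5 against 85651.5 TPM on day 2 and 69894.1 against 89017.3 TPM on day 3. Of these 13 mRNAs, 12 were lower on both days. With TPM rescaled to the sum of the genes outside the mitochondrial genome, the members' median difference over both days fell from 0.18 to 0.10, and that of all genes tested from 0.04 to -0.04. On that scale PRDX1 stood at 0.0027, PRDX5 at -0.03 and TXN at 0.28. The part of the mitochondrial share in the remaining differences was not tested.

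The day 3 minus the day 2 guide effect was fitted as a crossed contrast. With 1 library per arm and day, no repeat is left to measure its spread. The guide and day effects themselves make up the residual of this fit. Its standard errors and p-values therefore cannot decide whether the guide effect differed between the days. The contrast was 0.57 for PRDX6 (SE 0.42, limma adjusted p 0.961), 0.38 for both PRDX1 (SE 0.26) and PRDX5 (SE 0.28), and -0.40 for TXN (SE 0.62). None of the 10 passed, where 0.0967% of the genes tested did, and none had an unadjusted p under 0.05 (3.52% of the genes tested). The peroxiredoxins PRDX1, PRDX5 and PRDX6 shared a form in which the knockdown library was at or below the control library on day 2 and above it on day 3, and TXN had its larger difference on day 2.

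The size of these single-pair differences can be set beside counting error, with an exact 95% interval from the estimated reads. The interval covers counting error only, since amplified reads are not independent molecules, and it compares 2 libraries rather than conditions. For TXN on day 2, an estimated 430 against 264 reads gave a TPM ratio of 1.48 (1.27 to 1.73), and on day 3 319 against 276 reads gave 1.12 (0.954 to 1.32). For PRDX6 the day 3 ratio was 1.47 (1.28 to 1.69) from 543 and 359 reads, and the day 2 ratio 0.988 (0.852 to 1.15). PRDX1, the deepest, had 0.935 (0.868 to 1.01) on day 2 and 1.21 (1.13 to 1.30) on day 3. On day 2 the interval lay above 1 for TXN and for no other member, and on day 3 for 7 of the 10, all but TXN, TXNRD1 and GPX4. The same interval over the 6495 tested genes with a principal transcript lay above 1 for 8.16% on day 2 and 13.6% on day 3, and over the 585 of them averaging 100 TPM or more for 12% and 42.6%. Such day 3 differences were therefore common at the members' levels, and no further library repeats them. For GPX4 on day 3, 67 against 66 reads gave 0.993 (0.692 to 1.41), and for TXNRD1 26 against 21 reads gave 1.21 (0.651 to 2.25). In these 2 genes counting error alone left wide intervals, and the size of difference that could be detected was not tested.

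The labels' second factor is the time on doxycycline. No member passed the limma threshold between day 3 and day 2, where 0.0363% of the genes tested were called, and none had an unadjusted p under 0.05 (6.61%). The members' adjusted p-values ran from 0.760 to 0.997, and their median log2 difference, day 3 minus day 2, was 0.0039 against 0.0071 for all genes tested. PRDX2, PRDX4 and GPX4 had both day 3 libraries above both day 2 libraries (17.1% of all genes tested), and PRDX3, TXN and TXNRD1 had both below (18.4%).

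PRDX2 had the largest positive difference, 0.31 (SE 0.16, limma adjusted p 0.760), with 0.40 under the SNHG26 guides and 0.21 under the control guides. GPX4 was 0.21 (SE 0.15) higher on day 3, by nearly the same amount in each arm (0.23 and 0.19), and its day means were 133.5 ± 3.09 and 154.3 ± 0.756 TPM. PRDX4 was 0.20 (SE 0.17) higher. TXN was lower on day 3 by -0.39 (SE 0.25), with -0.59 under the SNHG26 guides and -0.19 under the control guides. TXNRD1 had -0.29 (SE 0.34) and PRDX3 -0.20 (SE 0.16). TXN and its reductase thus had the same order of libraries on both factors, with the day 2 knockdown library highest and the day 3 control library lowest, on 21.1 to 32.1 estimated reads for TXNRD1. PRDX1, PRDX5 and PRDX6 differed by 0.19, 0.19 and 0.37 in the knockdown arm and by -0.19, -0.19 and -0.20 in the control arm. Counted by arm, 6 members were higher on day 3 with the SNHG26 guides (50% of all genes tested) and 3 with the control guides (44.8%). Both arms had the same sign in 3 members higher on day 3 (24.3%) and 4 lower (24.8%).

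**Figure D4:**
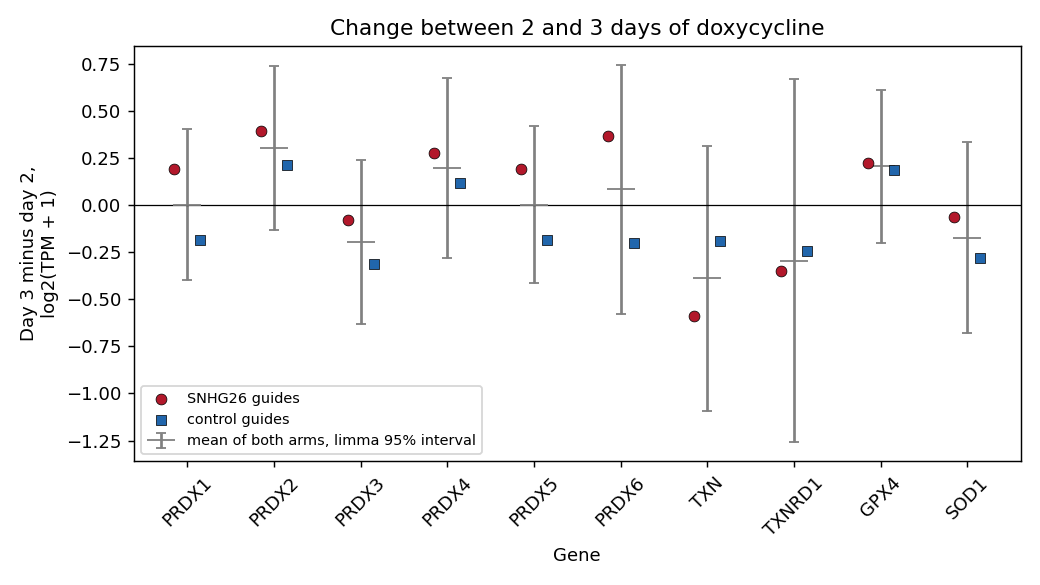
Difference between day 3 and day 2 of doxycycline on log2(TPM + 1) for each gene in the knockdown arm (circles), in the control arm (squares) and as the limma mean with its 95% interval (grey, n = 2 libraries per day). PRDX2, PRDX4 and GPX4 are above 0 in both arms, PRDX3, TXN, TXNRD1 and SOD1 below 0 in both, and all 10 intervals include 0.

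By library, 7 of the 10 members had their lowest value in the day 3 control library (25.5% of all genes tested did) and 5 had their highest in the day 3 knockdown library (28.1%). The 10 genes together took 3329 and 3746 TPM in the knockdown libraries and 3301 and 3085 TPM in the control libraries. PRDX1 kept a steady 33.4% to 35.9% of the summed peroxiredoxin TPM in all 4. Averaged over the members, the centred log2 levels were 0.06, 0.12, -0.03 and -0.14 in the day 2 and day 3 knockdown and day 2 and day 3 control libraries. The genes closest to that mean profile among 1136 others with at least 50 TPM were MTND1P8, RPL21P16 and KRT19, at Euclidean distances of 0.0172, 0.0368 and 0.0377 over the 4 libraries. The members themselves lay at 0.135 (PRDX1) to 0.499 (TXN) from it, against a median of 0.370 for the genes compared, and all but TXN lay nearer than that median to a profile that they themselves make up.

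Reads of related or overlapping rows could touch some members. PRDX1P1, a processed pseudogene, had 1 read in the day 3 knockdown library and 0 in the others, and SOD1P3 had 3 and 5 reads in the knockdown and 4 and 1 in the control libraries, few beside their parent genes. PRDX2 lies on the same strand within the listed span of HOOK2, which had at most 41.5 and 102.5 reads in the knockdown and 118.3 and 76.4 reads in the control libraries, beside an estimated 344 to 603 reads of PRDX2. MMACHC, which overlaps PRDX1 on the opposite strand, had at most 0 and 1 reads in the knockdown and 2 and 1 in the control libraries. PRDX6-AS1, opposite PRDX6, was listed at 0 TPM in all 4 libraries. TXNRD1 contains the processed pseudogene RPL18AP3 on the same strand, which had 123 and 141 reads in the knockdown and 127 and 148 in the control libraries, more than the 44.5 to 67.9 reads that TXNRD1 could hold at most over its full span. Whether counting used strand, and how reads were shared between such rows, is not given in the sources used here.

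The wider redox network was followed through lists of related genes. Beside the list medians below, the median guide difference was 0.04 for all genes tested. It was 0.10 for the 764 genes averaging 100 TPM or more. Of 22 other thioredoxin, glutaredoxin and methionine sulfoxide reductase genes, 15 were tested and none passed between the guides in either direction, with a median of 0.22. Of these 15, 10 were higher on average in the knockdown arm, where 53.3% of all genes tested were. On both days 8 were higher (24.8% of all genes tested) and 3 were lower (21.8%). The list was led by TXNDC17, a cytosolic thioredoxin-like protein, at 489.8 and 534.6 TPM against 442.3 and 438.7 TPM (log2 difference 0.22, SE 0.14). MSRB1, a selenoprotein that repairs oxidised methionine, stood at 46.9 and 47.3 against 33.9 and 24.3 TPM (0.69, SE 0.28, limma adjusted p 0.935). GLRX5, which serves iron-sulphur cluster assembly in mitochondria, stood at 31.7 and 23.0 against 17.5 and 21.5 TPM (0.46, SE 0.31).

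Of 20 other peroxidases, dismutases and conjugating enzymes, 15 were tested and none passed, with a median of 0.10. Of these 15, 11 were higher on average in the knockdown arm (53.3% of all genes tested). On both days 4 were higher (24.8%) and 2 were lower (21.8%). GSTP1, a glutathione transferase, was the highest at 6327 and 7065 TPM against 5927 and 5504 TPM (0.23, SE 0.0945, limma adjusted p 0.935). The selenoprotein peroxidase GPX1 stood at 877.3 and 1187 TPM against 937.3 and 805.5 TPM, crossing between the days as PRDX1 and PRDX5 did. MGST1, a membrane-bound glutathione transferase, stood at 221.9 and 169.9 against 245.8 and 145.0 TPM, with a larger step between days than between arms.

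Of 27 NRF2 regulators and targets, 17 were tested and none passed, with a median of 0.09. The ferritin light chain FTL, an iron store, was at 14964 and 16787 TPM against 14094 and 12391 TPM (0.26, SE 0.10, limma adjusted p 0.935), and the heavy chain FTH1 differed by 0.23 (SE 0.13). TKT, a pentose phosphate enzyme, differed by 0.09 (SE 0.20). Of the 17, 9 were higher on average in the knockdown arm, where 53.3% of all genes tested were. On both days 5 were higher (24.8% of all genes tested) and 3 were lower (21.8%). Of 18 genes of selenoprotein synthesis and other selenoproteins, 13 were tested and none passed, with a median of 0.14. Of these 13, 10 were higher on average in the knockdown arm (53.3% of all genes tested). On both days 1 was higher (24.8%) and 0 were lower (21.8%). SELENOW differed by 0.28 (SE 0.17), SELENOH by 0.04 (SE 0.30) and SELENOM by -0.17 (SE 0.43). By day, SELENOW had 0.08 on day 2 and 0.48 on day 3. Signs were opposite on the 2 days for SELENOH (-0.37 and 0.44) and SELENOM (0.34 and -0.68). Between the days, too, none of the genes tested in these 4 lists passed.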

How the data were processed

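The deposited table gives 1 TPM column per library, which the authors made from their reads. Per the submitters' processing notes, minimap2 2.24-r1122 and GRCh38 were used; the counting tool, annotation release and filters are not given in the sources used here. The read unit was recovered as the most frequent product of TPM and gene span: 1 read on 10 kb was worth 0.653 to 0.803 TPM, and 23.1% to 23.9% of genes with a value were whole reads over the full span within 0.001 read. For the others, reads were estimated on the principal GENCODE transcript span, so a TPM can move at equal reads where the mix of long and short transcripts differs. In some members, such as GPX4 (2854 against 2810 bases), that span is slightly longer than the listed gene span. There the estimate slightly exceeds the reads over the full gene span.

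The 8274 genes averaging 1 TPM or more were fitted on log2(TPM + 1) in limma 3.58.1 (R 4.3.3). The fit used lmFit and a trended eBayes, Benjamini-Hochberg adjustment and a threshold of 0.05. It was run for the guides, the days and their crossed contrast. A trial on simulated reads used changes much larger than the members' differences, so it does not show what could be detected in these genes. Same-day libraries share a day of treatment, and whether they share more, such as a culture, is not given in the labels. Their deviations from the arm means correlated at 0.0464 over the 8274 genes. The members, lists and tests were chosen with earlier results of these data known. Named genes are the members, the 3 highest genes of each list, rows that overlap a member or are its pseudogene, and the 3 nearest profiles. Alternatives were pseudocounts of 0.1 and 5, other filters, scalings and variance priors, a replicate block and leaving out each library.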

Additional observations from a re-analysis of the deposited data

How the results depend on the processing

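No member passed the threshold between the guides or between the days under any alternative run, with limma adjusted p-values from 0.705 upward for the guides and from 0.418 upward for the days. The count of all genes called between the guides stayed at 0, that between the days went from 3 to 0 with a pseudocount of 0.1 or 5, without a filter, with quantile normalization, without a variance trend, with the replicate block and without any 1 library, and the count whose guide effect differed between the days went from 8 to 14 (pseudocount 0.1), 13 (mean of at least 5 TPM) or 0 (pseudocount 5, no filter, no trend, replicate block). The cause was not tested. Signs of small differences turned. Between the guides PRDX1 went to -0.0202 with quantile normalization and PRDX5 to -0.0289 on the scale without mitochondrial genes, which was chosen after seeing the data. Between the days PRDX1 went to -0.0706 and -0.0327 and PRDX5 to -0.0325 and -0.0314 under the same settings. With 1 library left out, where the lone library is assumed to vary like the others, guide differences ran from -0.0036 to 0.19 for PRDX1, -0.0164 to 0.30 for PRDX3, -0.0369 to 0.16 for PRDX5, -0.14 to 0.0847 for GPX4, 0.0707 to 0.66 for TXN, 0.0080 to 0.41 for PRDX2, 0.0266 to 0.31 for PRDX4, 0.0825 to 0.45 for PRDX6, 0.0694 to 0.42 for TXNRD1 and 0.0631 to 0.34 for SOD1, and day differences from -0.14 to 0.14 for PRDX1, -0.12 to 0.13 for PRDX5, -0.19 to 0.36 for PRDX6, 0.16 to 0.46 for PRDX2, 0.0744 to 0.32 for PRDX4, -0.32 to -0.0668 for PRDX3, -0.67 to -0.11 for TXN, -0.44 to -0.15 for TXNRD1, -0.33 to -0.0153 for SOD1 and 0.18 to 0.23 for GPX4. The members' median guide difference ran from 0.0546 to 0.24. The replicate block changed no call of a member. The crossed contrast, whose residual is made up of the guide and day effects, was not run with a library left out. TXNRD1 fell below the filter of 5 TPM. Depth limits TXNRD1 and GPX4 most.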
